A study of Mus musculus with 40 samples.

Results

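Broad domains of H3K27ac, the histone acetylation mark of active promoters and enhancers, were described in mouse haematopoietic stem and progenitor cells. The peaks of 6 H3K27ac lists, 1 per genotype, were merged over the 19 autosomes wherever they overlapped by 1 bp, and a broad domain was a merged region of at least 5 kb in which every list had a peak. Of 70692 merged regions, 13553 were held by all 6 lists and 937 of these (6.91%) were broad domains. The other 12616 regions held by all 6 lists are the set they are compared with. The lists gave both the members and their widths, so H3K27ac widths over the domains are a description, whereas H3K4me1, position, gene content and sequence played no part in the choice.

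The cells were sorted stem and progenitor cells of mice aged 21 days. The genotypes were Flt3-ITD, an internal tandem duplication that keeps the receptor kinase FLT3 active; NUP98-HOXD13, a leukaemia fusion that joins part of a nuclear pore protein to the DNA-binding domain of HOXD13; Runx1-het; the compound genotypes Flt3-ITD/NUP98-HOXD13 as well as Flt3-ITD/Runx1-het; and wild type. The source names of the Runx1-het samples join Runxf and Vav, and Vav is the name of a promoter active across blood cells; the alleles are not detailed further in the labels, nor is the promoter that drives the fusion. H3K27ac and H3K4me1 were mapped by ChIPmentation, in which the transposase Tn5 places sequencing adapters on immunoprecipitated chromatin. Marks were measured in 39 samples, 3 or 4 in each of 12 groups, but each group was deposited as 1 pooled peak list, and for pooled cells fewer cells with a mark and less of it per cell cannot be told apart. Nothing here measures the spread between animals, so genotypes are compared without a test or p-value. The 95% Wilson intervals cover counting error only, and read depth is unknown.

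H3K27ac is deposited by the acetyltransferases p300 and CBP, and stretches of it that run for several kilobases are known from genes that define a cell's identity, where clustered enhancers and a strongly transcribed promoter merge. H3K4me1 marks enhancers and the flanks of active promoters, and is usually depleted at the start site itself, where H3K4me3 takes its place. In stem and progenitor cells, such domains are known at genes of the transcription factors that maintain the immature state, among them Meis1, Erg and the HoxA genes.

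Promoter sequences of 4 domain genes are shown because the results turn on them: H3K27ac ran further at Mars2 and Sos2 in both lists with the fusion, less far at Meis1 in the same lists, and about equally far at Erg in every list. They are RefSeq sequences (GRCm38.p6, 5′ to 3′ in the direction of the gene), ending at the base before the RefSeq start or, for Meis1, 16 bases before it. Capitals mark matches on either strand to the core motifs of ETS factors (CGGAAG), RUNX factors (TGTGGT) or GATA factors (AGATAA).
Mars2 promoter (chr1:55236927-55237176, + strand): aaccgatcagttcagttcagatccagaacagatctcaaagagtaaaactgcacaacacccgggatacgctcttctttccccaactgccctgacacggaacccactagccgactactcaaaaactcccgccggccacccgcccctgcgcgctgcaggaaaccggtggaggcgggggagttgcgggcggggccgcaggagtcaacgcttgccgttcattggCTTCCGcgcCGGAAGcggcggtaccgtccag
Sos2 promoter (chr12:69681853-69682102, - strand): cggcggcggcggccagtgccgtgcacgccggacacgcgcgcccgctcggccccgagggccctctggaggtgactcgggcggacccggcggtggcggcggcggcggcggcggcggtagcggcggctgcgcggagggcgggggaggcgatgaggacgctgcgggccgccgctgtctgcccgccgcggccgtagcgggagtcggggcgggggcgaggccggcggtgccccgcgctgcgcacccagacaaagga
Meis1 promoter (chr11:19018986-19019219, - strand): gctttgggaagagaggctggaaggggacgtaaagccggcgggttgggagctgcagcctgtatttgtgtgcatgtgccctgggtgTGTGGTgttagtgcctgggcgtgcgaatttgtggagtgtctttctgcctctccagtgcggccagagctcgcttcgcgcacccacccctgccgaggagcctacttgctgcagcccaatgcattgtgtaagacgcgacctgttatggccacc
Erg promoter (chr16:95459349-95459598, - strand): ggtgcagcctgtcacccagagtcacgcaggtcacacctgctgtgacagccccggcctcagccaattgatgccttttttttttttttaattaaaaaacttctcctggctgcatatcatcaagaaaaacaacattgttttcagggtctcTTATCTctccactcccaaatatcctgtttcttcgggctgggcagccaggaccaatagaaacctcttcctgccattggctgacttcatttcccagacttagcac
These windows held 2 ETS matches at Mars2, 1 RUNX match at Meis1, 1 GATA match at Erg and none of the 3 motifs at Sos2, which had 82.8% G and C.

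The domains also held 16 whole miRNA genes, in 14 domains. Mature sequences of those with a known role in blood cells or leukaemia, and of miR-15a, which lies 4213 bp from a domain described below, are given 5′ to 3′ from RefSeq with the seed, bases 2 to 8, in capitals.
miR-142a-3p: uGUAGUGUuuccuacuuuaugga
miR-142a-5p: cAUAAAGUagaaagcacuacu
miR-21a-5p: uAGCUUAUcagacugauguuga
miR-196b-5p: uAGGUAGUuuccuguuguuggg
miR-15b-5p: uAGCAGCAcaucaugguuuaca
miR-16-5p: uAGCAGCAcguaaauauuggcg
miR-15a-5p: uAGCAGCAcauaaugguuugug
The miR-15b, miR-16 and miR-15a sequences share the seed AGCAGCA, while the seeds of the other 4 differ from it and from each other.

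The median domain was 6225 bp wide (quartiles 5450 and 7628 bp), against 2334 bp for the other regions held by all 6 lists. Of the 937 domains, 87 were at least 10000 bp wide, 17 at least 15000 bp and 4 at least 20000 bp. The name describes the union of the lists rather than each list: 762 domains had at least 5000 bp covered in 1 list or more, but 209 in every list, and a single peak of at least 5000 bp lay in 592 domains in 1 list or more and in 35 in every list. At the threshold the domain of Rpl18/Sphk2 (5001 bp) and one within Rapgef4 (5004 bp) were just inside, and regions nearest Sox4 (4996 bp) and within Klhl3 (4991 bp) just outside. The strongest peaks in the domains ranked high in their own lists, the median domain standing at the 90.5 to 93.5 percentile of the authors' fold enrichment. The median of the other regions held by all 6 lists stood at the 76.2 to 82.4 percentile, and a wider region has more room for a strong peak.

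The widest domain, 40166 bp at chr17:83968868-84009033, lay between genes, 122056 bp from the nearest protein-coding start, that of Haao. It held 32850 bp of H3K27ac in Flt3-ITD, 38896 bp in NUP98-HOXD13, 32638 bp in Runx1-het, 39302 bp in Flt3-ITD/NUP98-HOXD13, 32534 bp in Flt3-ITD/Runx1-het and 29015 bp in wild type. A second domain, of 16544 bp, lay 544 bp away on one side, and further off on the other side stood 4 domains that spanned 77719 bp up to Zfp36l2, which encodes an RNA-binding protein that shortens the life of AU-rich mRNAs. The second widest, 22819 bp at chr6:52211658-52234476, took in the starts of Hoxa3, Hoxa7 and Hoxa9, homeobox genes of immature blood cells, and the whole gene of miR-196b. It had 19857 to 22819 bp covered in the mutants, against 18219 bp in wild type, so all 6 lists covered most of it.

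Next in width were the domain at Ptpre, which encodes a receptor-type tyrosine phosphatase (20124 bp), one between genes 9359 bp from Lmo2, a transcriptional adaptor required for blood formation (20088 bp), and one within Cdk6, the cell cycle kinase gene (18478 bp). Others of the 15 widest stood at Pde4b, a cAMP phosphodiesterase gene (17549 bp), Lrrfip1 (17050 bp), Evi2, Evi2a and Evi2b (16688 bp), Irf2bp2 (16672 bp), Mars2 (16225 bp), Mef2c, a MADS-box transcription factor gene (16056 bp), Meis1 (15853 bp) and Ramp1, a receptor activity-modifying protein gene (15819 bp). The domains with the highest fold percentile (median of the 6 lists) were other ones, of 5245 to 15145 bp: Arrdc3, an arrestin-domain gene; Gimap6, a GTPase gene of lymphocytes and their precursors; one nearest Chd2; 1110008L16Rik/Ppp2r3c; Zfp36l2; Erg; Pim1, a survival kinase gene induced by STAT5; Ptma; Srgn, the granule proteoglycan serglycin; and Ankrd11.

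Several genes had a run of domains. Etv6, an ETS repressor gene altered in leukaemia, was the nearest gene of 9 domains, 65718 bp wide in total, 1 over its start and 8 within the gene. Runx2 was nearest to 6, Cux1 and Zfp36l2 to 5 each. Domains no more than 12.5 kb apart formed 842 groups, of which 760 held a single domain, 73 held 2, 5 held 3 and 4 held 4. The groups of 4 were those of Zfp36l2, of H2afy/Tifab, of the 3′ part of Etv6 and of Tspan14.

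Of the 14 gene lists, the one of haematopoietic transcription factors had the largest share of starts in broad domains. Its interval overlapped those of the STAT5, MAPK, B lymphoid and ubiquitously expressed lists. Of 48 haematopoietic transcription factor genes, 25 (52.1%, 38.3 to 65.5) had a start in a domain, against 501 (2.41%) of 20780 protein-coding genes on the autosomes. The 25 were Meis1, Mecom, Hlf, Erg, Lmo2, Lyl1, Runx1, Runx2, Etv6, Myb, Mycn, Hoxa9, Hoxa7, Nfe2, Ikzf1, Ikzf2, Spi1, Bcl11a, Stat5b, Stat3, Elf1, Etv3, Klf6, Nfkb1 and Zfp36l2. Among them, the domain of Ikzf1, a lymphoid zinc finger factor gene, was 13137 bp wide, that of the ETS factor gene Elf1 11188 bp, that of Nfkb1 10947 bp, and those at Spi1, which encodes the myeloid master regulator PU.1, were 5811 and 5523 bp. The lists were drawn up with results of these data known, so their shares are descriptions.

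Genes of cytokine signalling had smaller shares. Starts lay in domains for 7 of 21 genes of the STAT5 and cytokine feedback list (33.3%, 17.2 to 54.6), namely the cell cycle inhibitor gene Cdkn1b (12723 bp), the cyclin gene Ccnd2, Cdk6, Pim1, the cytokine gene Osm, the survival gene Mcl1 and Lnpep. The MAPK feedback and early response list had 6 of 28 (21.4%), namely the phosphatase genes Dusp2 (13695 bp) and Dusp6, the mRNA decay gene Zfp36 (12392 bp), Ier2, and the AP-1 genes Junb and Jund. Of 30 stem cell surface and cytokine receptor genes, 5 started in a domain (16.7%): Itga4, Angpt1 and the progenitor surface marker genes Cd34, Flt3 and Kit, while the other 25 did not. Of 28 genes recurrently mutated in myeloid leukaemia, 5 did (17.9%), Runx1, Etv6, Flt3, Sf3b1 and Kit, of which all but Sf3b1 are also in another of these lists. Merged without the Runx1-het list, both counts were 3.

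None of 16 granulocyte, 19 monocyte and dendritic, 14 T and NK, or 10 mast cell, basophil and eosinophil genes started in a domain; the upper limits of their intervals were 19.4%, 16.8%, 21.5% and 27.8%. Among 13 B lymphoid genes there were 2, Rag2 and Dntt, which act in antigen receptor rearrangement, among 17 erythroid and megakaryocyte genes 1, the carbonic anhydrase gene Car2, and among 20 interferon response genes 1, Rsad2. Merged without the Runx1-het list the B lymphoid count was 1, and without the Flt3-ITD/NUP98-HOXD13 list the interferon count was 0. Of 18 genes not expressed in blood none did, and of 16 ubiquitously expressed genes 3 did (18.8%), Hnrnpa2b1, B2m and Ywhaz, although all 16 started in some region held by all 6 lists. Most genes of the 4 mature-cell lists with no start in a domain lacked a region in all 6 lists at all. Starts lay in one for 1 of 16 granulocyte, 3 of 19 monocyte and dendritic, 2 of 14 T and NK and 0 of 10 mast cell, basophil and eosinophil genes. This compares with 7511 of all 20780 protein-coding genes and 39 of 48 transcription factor genes. Among the others, 2 of 13 B lymphoid, 6 of 17 erythroid and megakaryocyte and 14 of 20 interferon response genes started in one. At these list sizes, counts of 0 starts in domains do not set the mature-cell lists apart from the 2.41% of all protein-coding genes, which lies within each of their intervals.

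**Figure D1:**
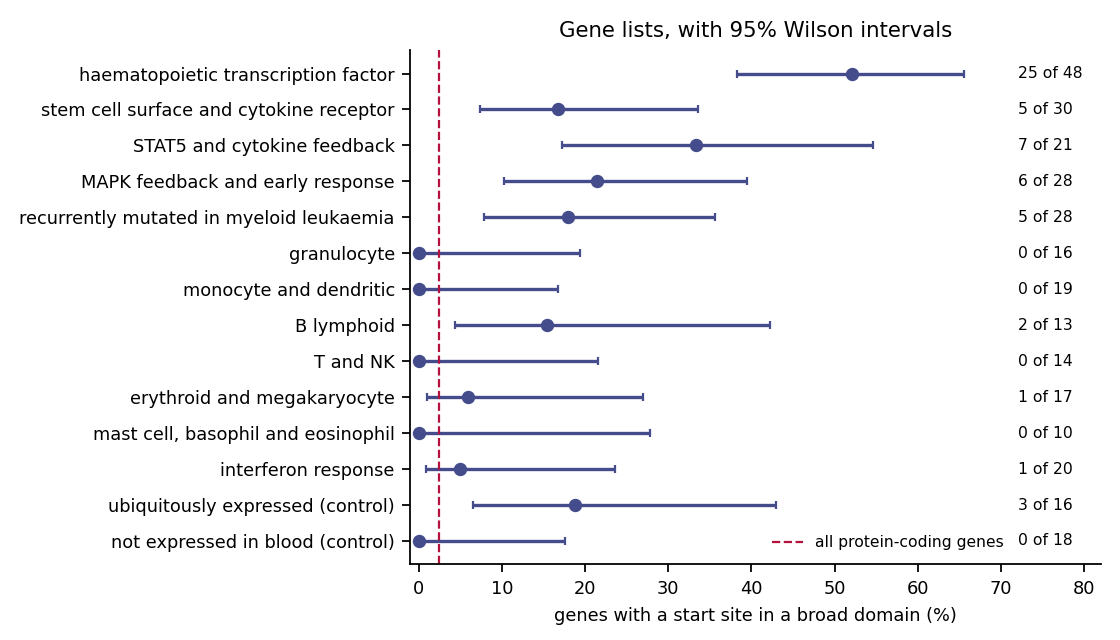
Share of the genes of each list with a start site in a broad domain (x axis, %, points) with 95% Wilson intervals (bars) and the counts at the right; the dashed line is the 2.41% of all protein-coding genes. The haematopoietic transcription factor list stands at 52.1%, and 5 lists stand at 0.

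The genes behind the genotypes were among them, except Hoxd13. The Flt3 domain (6258 bp) had 5554 bp covered in Flt3-ITD, 5112 bp in NUP98-HOXD13, 5588 bp in Runx1-het, 5624 bp in Flt3-ITD/NUP98-HOXD13, 5064 bp in Flt3-ITD/Runx1-het and 5017 bp in wild type, so the widest list exceeded the narrowest 1.12-fold. The Runx1 domain (7873 bp, at chr16:92820207-92828079) had 6285 bp in Flt3-ITD, 5300 bp in NUP98-HOXD13, 5917 bp in Runx1-het, 6853 bp in Flt3-ITD/NUP98-HOXD13, 6441 bp in Flt3-ITD/Runx1-het and 3422 bp in wild type. The Nup98/Pgap2 domain (5184 bp) had 2192 bp in NUP98-HOXD13 and 4922 bp in Flt3-ITD/NUP98-HOXD13, against 2901 bp in wild type, with the fusion lists on either side of it. At none of these 3 domains did the lists with the alteration of its own gene stand apart from the rest. They are the domains over the starts. Flt3 and Runx1 each had 2 domains no more than 12.5 kb apart, and the one away from the start is not described here.

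Many of the domains lay over a promoter. A protein-coding start was inside 461 of 937 (49.2%, 46 to 52.4), much as in the other regions held by all 6 lists (50.3%, 49.5 to 51.2), while 303 (32.3%, 29.4 to 35.4) lay within a gene away from any start, against 27.8% of the other regions, and 173 (18.5%, 16.1 to 21.1) lay between genes, against 21.8%. Of the domains, 412 held 1 start, 43 held 2, 5 held 3 and 1 held 4, and 140 were over 50000 bp from any protein-coding start. Of the 476 domains without such a start, 45 (9.45%, 7.14 to 12.4) held the start of a long non-coding gene, against 282 of 6266 (4.5%, 4.01 to 5.04) other regions, which are narrower and have less room for one.

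Around promoters the domains reached into the gene. In the 412 domains with 1 start, the median reach was 2081 bp upstream and 4223 bp downstream, and 313 (76%, 71.6 to 79.8) reached further downstream. In the 250 bp around 3625 bp downstream, H3K27ac covered 60.6% of their bases for Flt3-ITD/NUP98-HOXD13, against 37.8% for wild type, and in the 250 bp around 3625 bp upstream 24.9% for Flt3-ITD/NUP98-HOXD13, against 15.3% for wild type. H3K4me1 dipped over the start: in the first 250 bp downstream of it, it covered 11.3% of bases for Flt3-ITD/NUP98-HOXD13, against 5.12% for wild type, and 3625 bp downstream 57.1% for Flt3-ITD/NUP98-HOXD13, against 38.3% for wild type. In the 5419 other regions with 1 start, H3K27ac at 3625 bp downstream was down to 5.48% for Flt3-ITD/NUP98-HOXD13 and 2.36% for wild type, as their width sets it. H3K4me1 there stood at 18% for Flt3-ITD/NUP98-HOXD13 and 10.8% for wild type. Nearer the start these regions leaned into the gene too. Around 1125 bp, H3K27ac covered 65.4% downstream and 27.2% upstream for Flt3-ITD/NUP98-HOXD13, and 37.4% and 16.1% for wild type. Their H3K4me1 also dipped in the first 250 bp downstream, to 2.98% for Flt3-ITD/NUP98-HOXD13 and 1.37% for wild type.

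**Figure D2:**
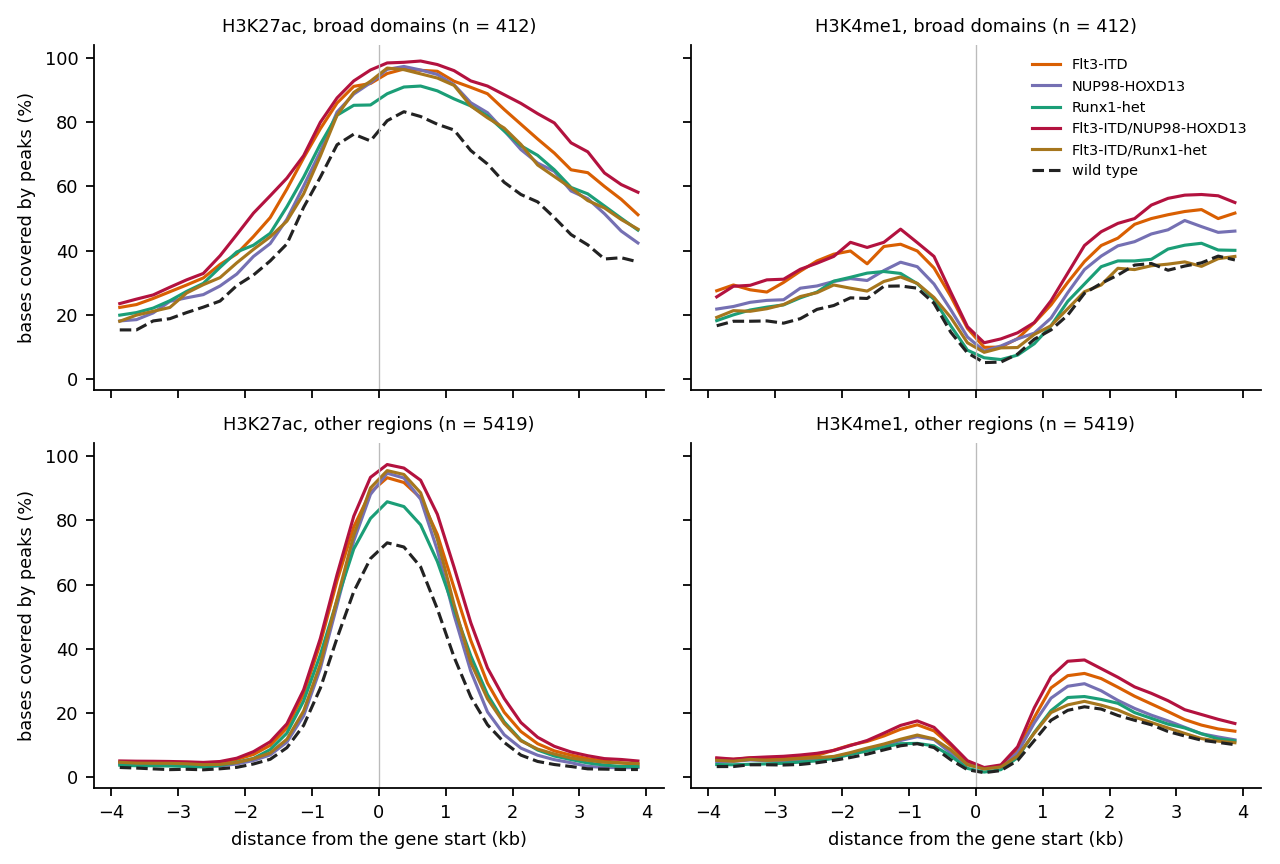
Share of bases covered by peaks, averaged over regions (y axis, %), by distance from the gene start (x axis, kb, positive into the gene, 250 bp bins), for H3K27ac (left) and H3K4me1 (right) in broad domains (top, n = 412) and other regions held by all 6 lists (bottom, n = 5419), 1 line per genotype, wild type dashed. H3K27ac leans into the gene, and H3K4me1 dips at the start, to 11.3% for Flt3-ITD/NUP98-HOXD13 and 5.12% for wild type.

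H3K4me1 lay at nearly every broad domain. A peak of H3K4me1 was present in all 6 lists at 897 of 937 domains (95.7%, 94.2 to 96.8), against 47.2% (46.4 to 48.1) of the other regions, or 50.6% of all 13553. A wider region has more room for a peak, and 84.9% (82.5 to 87) of the 967 regions from 4000 to just under 5000 bp met it too. The share of domain sequence covered was 54.7% for Flt3-ITD, 50.9% for NUP98-HOXD13, 42.6% for Runx1-het, 57.9% for Flt3-ITD/NUP98-HOXD13, 43.7% for Flt3-ITD/Runx1-het and 36.8% for wild type. The other regions had 35.3%, 32.1%, 26.5%, 37.8%, 28.6% and 23.2% in the same order of lists, so in each list the domains were the more densely covered.

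**Figure D3:**
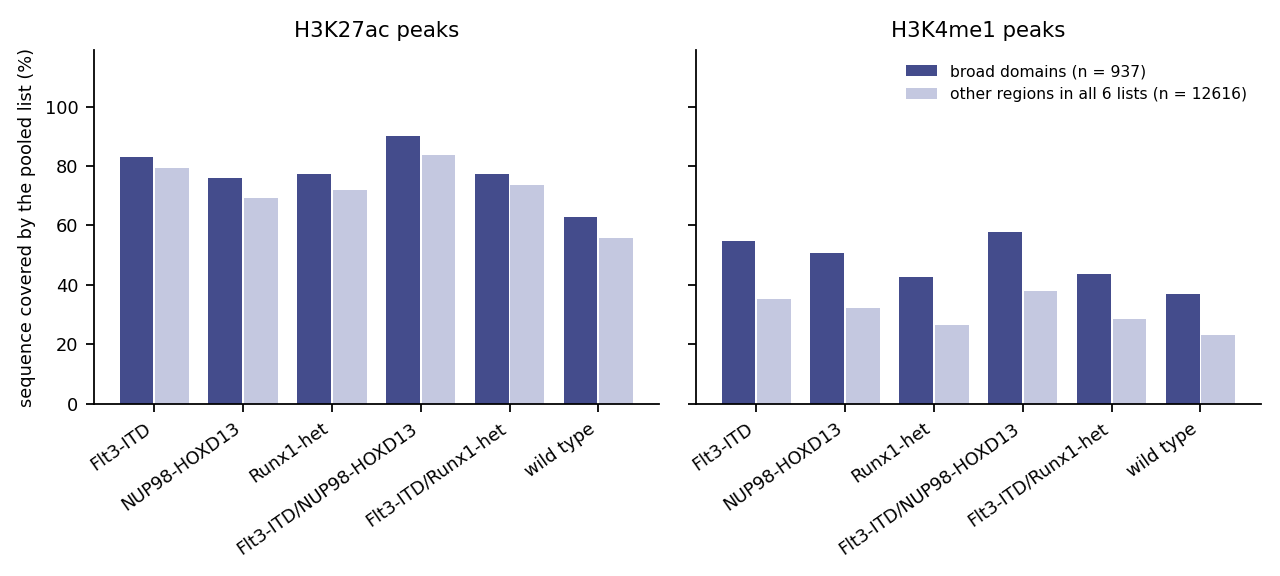
Share of sequence covered by each pooled list (y axis, %) for H3K27ac (left) and H3K4me1 (right), in broad domains (dark) and in the other regions held by all 6 lists (light). Flt3-ITD/NUP98-HOXD13 has the highest bar for both marks, 90% and 57.9% of domain sequence, and wild type the lowest, 63% and 36.8%.

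Domains away from promoters carried the most H3K4me1. Within genes it covered 67.1% of domain sequence in Flt3-ITD, 64.9% for NUP98-HOXD13, 52.2% for Runx1-het, 71.6% for Flt3-ITD/NUP98-HOXD13, 56.3% for Flt3-ITD/Runx1-het and 44.1% for wild type. Over start sites it covered 43.8%, 39.2%, 34.5%, 46.8%, 33.1% and 30.3% in the same order of lists. In every list the other regions differed likewise, with 55.9% against 20.1% for Flt3-ITD and 36.7% against 13.3% for wild type. The 5 highest mean shares were within Il15, the cytokine gene (91.8%), within Celf2, an RNA-binding protein gene (89.4%), within Ankrd44 (89.2%), between genes near Gimap6 (88.7%) and within Pik3r1, a PI3-kinase subunit gene (87.2%). All 5 lowest were promoters. The 8319 bp domain of Il3ra, the interleukin-3 receptor alpha chain gene, had 4684 to 8061 bp of H3K27ac and no H3K4me1 peak in any list, and the corepressor gene Sin3a, Mrps18b/Ppp1r10, Tob2 and Midn followed with 0.883 to 2.73%.

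**Figure D4:**
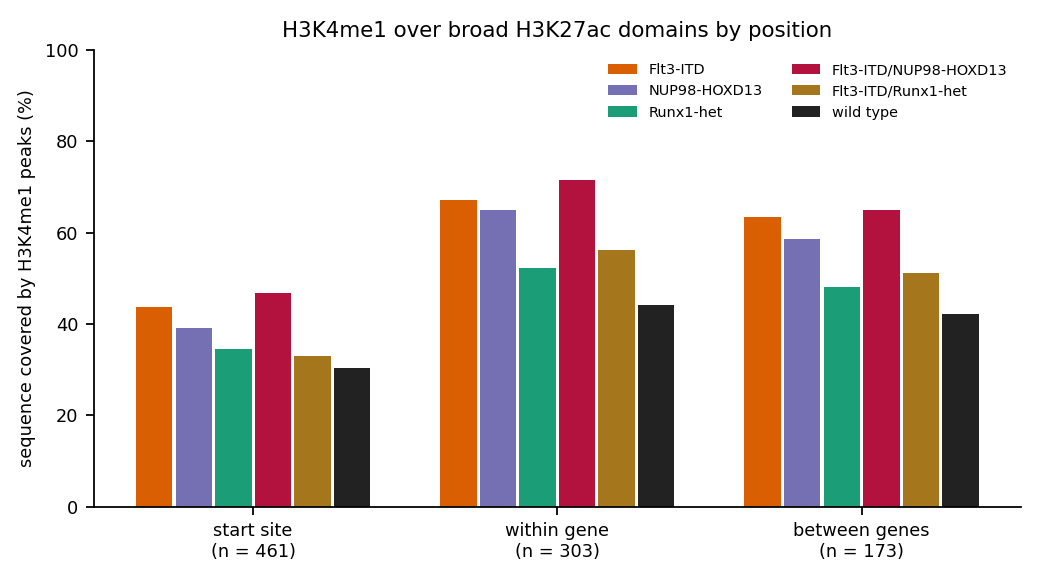
Share of domain sequence covered by H3K4me1 peaks (y axis, %) in each genotype (bars), for domains over a protein-coding start, within a gene and between genes. Domains over starts have the lowest bars in every genotype, 30.3 to 46.8%.

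As deposited, each mutant list had wider H3K4me1 than the wild-type list at most domains, but this direction depended on how width was measured. H3K4me1 was wider than in wild type at 90.7% of domains in the Flt3-ITD list (65.1% of all regions), 74.9% for NUP98-HOXD13 (57.1%), 65.3% for Runx1-het (46.4%), 90.1% for Flt3-ITD/NUP98-HOXD13 (68.7%) and 60.8% for Flt3-ITD/Runx1-het (51.8%). It was at least 1.5-fold wider at 469 domains in the Flt3-ITD list (50.1%, against 43.6% of all regions), 419 in NUP98-HOXD13 (44.7%, against 39.6%), 210 in Runx1-het (22.4%, against 27.2%), 511 in Flt3-ITD/NUP98-HOXD13 (54.5%, against 47.9%) and 308 in Flt3-ITD/Runx1-het (32.9%, against 36.6%). The 5 comparisons share the wild-type list. The mutant lists covered 38.5 to 55.5 Mb of H3K4me1 in all and the wild-type list 35 Mb, and the part of this in the result was not tested. When each list's covered share was divided by its median over all 13553 regions, an alternative added after the data were seen, the shares wider than in wild type were 36.7% for Flt3-ITD, 47.5% for NUP98-HOXD13, 49.1% for Runx1-het, 36.5% for Flt3-ITD/NUP98-HOXD13 and 42.4% for Flt3-ITD/Runx1-het. All 5 were thus below an even split, NUP98-HOXD13 and Runx1-het only narrowly. With peaks of −log10 q of at least 5 the direction turned round for NUP98-HOXD13 (33.5%) and Flt3-ITD/Runx1-het (45.3%).

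H3K27ac itself covered 83.2% of domain sequence in Flt3-ITD, 76.1% for NUP98-HOXD13, 77.2% for Runx1-het, 90% for Flt3-ITD/NUP98-HOXD13, 77.4% for Flt3-ITD/Runx1-het and 63% for wild type. Wild type was the narrowest of the 6 lists at 546 domains (58.3%), against 53.6% of all regions held by 6 lists. At those domains it was thus below all 5 mutants. Flt3-ITD/NUP98-HOXD13 covered the most sequence in the domains, and also over all regions held by 6 lists (84.8%). Over all autosomes the mutant lists covered 34.2 to 43.9 Mb and the wild-type list 27.6 Mb. With H3K27ac scaled in the same way, the domains wider than in wild type made up 32.6 to 37.8% for the 5 mutants, so the direction turned round.

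Relative to wild type, H3K27ac was wider at 94.6% of domains in the Flt3-ITD list (89.4% of all regions), 75.2% for NUP98-HOXD13 (72.8%), 85.5% for Runx1-het (79.5%), 94.1% for Flt3-ITD/NUP98-HOXD13 (89.1%) and 79.3% for Flt3-ITD/Runx1-het (77.1%). At least 1.5-fold wider were 281 domains in the Flt3-ITD list (30%, against 42.7% of all regions), 215 in NUP98-HOXD13 (22.9%, against 32%), 179 in Runx1-het (19.1%, against 32.4%), 370 in Flt3-ITD/NUP98-HOXD13 (39.5%, against 48%) and 220 in Flt3-ITD/Runx1-het (23.5%, against 36.5%), and 88 in all 5 (9.39%, against 17.3%). At least 1.5-fold narrower were 34 in NUP98-HOXD13 (3.63%, against 6.59%) and 23 in Flt3-ITD/Runx1-het (2.45%, against 4.29%). In the other lists there were 1 in Flt3-ITD (0.107%, against 1.16%), 6 in Runx1-het (0.64%, against 3.78%) and 5 in Flt3-ITD/NUP98-HOXD13 (0.534%, against 1.84%). Regions merged without the Flt3-ITD/NUP98-HOXD13 list gave 133 domains at least 1.5-fold wider for NUP98-HOXD13, and 200 for Flt3-ITD/NUP98-HOXD13. The rule chose the domains on these lists, so nothing is read from these shares.

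The double mutants can also be set against the list that carries the same alteration without Flt3-ITD. Flt3-ITD/NUP98-HOXD13 was wider than NUP98-HOXD13 at 88.9% of domains (81.1% of all regions), by 1.5-fold at 116 (12.4%, against 19.2%), and narrower by 1.5-fold at 0 (1.78% of all regions). Flt3-ITD/Runx1-het was wider than Runx1-het at 49.5% of domains (51.7% of all regions), by 1.5-fold at 80 (8.54%, against 15.1%), and narrower by 1.5-fold at 69 (7.36%, against 10.4%).

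Domain width varied less between the lists than the width of all regions held by 6 lists. The rule chose the domains on width. The same difference in bases also makes a larger ratio in a narrower region, so nothing is read from this contrast. The widest list exceeded the narrowest by a median of 1.57-fold, against 1.9-fold over all those regions; 231 domains (24.7%, against 45.8%) exceeded 2-fold and 31 (3.31%, against 7.59%) 5-fold. Least variable were domains within Osbpl1a (1.05-fold), at Pan3, a poly(A) nuclease subunit gene next to Flt3 (1.06-fold), at Erg (1.06-fold), Zc3h4 (1.07-fold), Tgif1 (1.08-fold), Eya1 (1.09-fold), beside Lmo2 (1.09-fold), at the purinergic receptor gene P2ry14 (1.09-fold), within Sik3 (1.1-fold) and beside Bcl2l14 (1.1-fold). At Erg, an ETS factor gene of stem cells (chr16:95450436-95460620), the lists covered 9556 bp in Flt3-ITD, 9582 bp in NUP98-HOXD13, 10044 bp in Runx1-het, 10073 bp in Flt3-ITD/NUP98-HOXD13, 9610 bp in Flt3-ITD/Runx1-het and 9473 bp in wild type.

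A few domains followed the fusion, and these were named after their values were seen. At 13 domains (1.39%, against 0.62% of all regions held by 6 lists) both lists with NUP98-HOXD13 were at least 1.5-fold wider than each of the other 4, and at 2 (0.213%, against 0.428%) both were at least 1.5-fold narrower. The most extreme was the 16225 bp domain at Mars2, the gene of mitochondrial methionyl-tRNA synthetase (chr1:55236482-55252706). It had 14762 bp covered in NUP98-HOXD13 and 16225 bp in Flt3-ITD/NUP98-HOXD13, 2099 bp in Flt3-ITD, 1335 bp in Runx1-het, 1881 bp in Flt3-ITD/Runx1-het and 706 bp in wild type. The fusion lists thus covered nearly all of it and the other 4 a small part, and H3K4me1 there covered 4036 bp in NUP98-HOXD13 and 9972 bp in Flt3-ITD/NUP98-HOXD13, against 1126 to 3398 bp in the other 4 lists.

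Another 2 of the 13 lay at Dleu2, the long non-coding gene that carries miR-15a and miR-16-1 and whose locus is deleted in lymphoid leukaemia. One, of 10384 bp, spanned the Dleu2 start (chr14:61679481-61689864), and the other, of 14561 bp, lay 28.6 kb away inside the transcribed unit (chr14:61636323-61650883), with the genes of miR-15a 4213 bp and miR-16-1 4351 bp from its edge. The inner domain had 13528 bp covered in NUP98-HOXD13 and 14561 bp in Flt3-ITD/NUP98-HOXD13, 4648 bp in Flt3-ITD, 5117 bp in Runx1-het, 3439 bp in Flt3-ITD/Runx1-het and 1731 bp in wild type. The one over the start had 10187 bp in NUP98-HOXD13 and 10384 bp in Flt3-ITD/NUP98-HOXD13, against 3086 to 4281 bp in the other 4. H3K4me1 did not separate these lists: at the inner domain it covered 2615 bp in NUP98-HOXD13 and 5102 bp in Flt3-ITD/NUP98-HOXD13, against 2464 to 5470 bp in the other lists, which overlap them.

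At Skap2, an adaptor gene of Src-family kinase signalling whose domain (10853 bp, chr6:52002952-52013804) ends 198 kb before the HoxA domain, the covered width was 10700 bp in NUP98-HOXD13 and 10764 bp in Flt3-ITD/NUP98-HOXD13, 5880 bp in Flt3-ITD, 4933 bp in Runx1-het, 4576 bp in Flt3-ITD/Runx1-het and 1745 bp in wild type. At Sos2, which encodes a RAS exchange factor (chr12:69678581-69687377), it was 8119 bp in NUP98-HOXD13 and 8797 bp in Flt3-ITD/NUP98-HOXD13, against 2951 to 5206 bp in the other 4. At Smad7, the gene of an inhibitor of TGF-beta signalling, it was 4539 bp in NUP98-HOXD13 and 5568 bp in Flt3-ITD/NUP98-HOXD13, against 808 to 2750 bp. The other 7 lay beside the sialyltransferase gene St3gal4 and within Ascc3, the primase gene Prim2, the adenosine kinase gene Adk, Umad1, 2900026A02Rik and Ralgps1, and were 5043 to 6803 bp wide. Over all 13, H3K4me1 covered 36.5% of sequence in NUP98-HOXD13 and 51.6% for Flt3-ITD/NUP98-HOXD13, against 33% for Flt3-ITD, 26.4% for Runx1-het, 19.7% for Flt3-ITD/Runx1-het and 25.5% for wild type.

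The 2 domains narrower with the fusion were those of Meis1, whose product binds DNA together with HOX proteins, and Mecom, which encodes a zinc finger factor needed by stem cells. At Meis1 (chr11:19007243-19023095) the covered width was 3116 bp in NUP98-HOXD13 and 5938 bp in Flt3-ITD/NUP98-HOXD13, 15519 bp in Flt3-ITD, 14403 bp in Runx1-het, 14755 bp in Flt3-ITD/Runx1-het and 13167 bp in wild type. At Mecom (chr3:30503349-30510813) it was 2446 bp in NUP98-HOXD13 and 3698 bp in Flt3-ITD/NUP98-HOXD13, 6791 bp in Flt3-ITD, 5561 bp in Runx1-het, 6344 bp in Flt3-ITD/Runx1-het and 6529 bp in wild type. This order of the H3K27ac lists at both genes was set by the way the 2 domains were chosen. H3K4me1 at Meis1 was 0 bp in NUP98-HOXD13 and 1429 bp in Flt3-ITD/NUP98-HOXD13, which lies within the 379 to 2652 bp of the others, and at Mecom it was 449 bp in NUP98-HOXD13 and 537 bp in Flt3-ITD/NUP98-HOXD13, below the 1075 to 2009 bp of the others. Both domains kept the pattern in each of 3 other ways of measuring width (peaks with −log10 q of at least 5, lists of equal length, and widths scaled by the list median), and of the 13 wider ones 10, 13 and 10 did.

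At 8 domains (0.854%, against 1% of all regions held by 6 lists) all 3 lists with Flt3-ITD were at least 1.5-fold wider than each of the 3 without it. At none were all 3 narrower (0.0148% of all regions). As with the fusion, nothing is read from these shares. The domain within Socs2, a STAT5-induced inhibitor of cytokine signalling (5842 bp, chr10:95394367-95400208), had 5253 bp covered in Flt3-ITD, 4285 bp in Flt3-ITD/NUP98-HOXD13 and 5425 bp in Flt3-ITD/Runx1-het, against 494 bp in NUP98-HOXD13, 1351 bp in Runx1-het and 492 bp in wild type. A gap of at least 1.5-fold between the 2 groups of lists was set by the way these 8 domains were chosen. At Foxp1, a forkhead factor gene (chr6:99025732-99030982), it was 4237 bp, 5149 bp and 4186 bp in those 3 lists with Flt3-ITD, against 1971 bp in NUP98-HOXD13, 2642 bp in Runx1-het and 503 bp in wild type. The others lay within Etv6 (5057 bp), Wwp2, Vwa8 and Zfp704, and 2 lay 4.62 kb apart between genes near Max, whose product is the partner of MYC. Of the 8, 5 kept the pattern with −log10 q of at least 5, 7 with lists of equal length and 3 with scaled widths, and Foxp1 kept it in the second of these alone.

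H3K4me1 over these 8 domains covered 66.6% of sequence in Flt3-ITD, 59.2% for Flt3-ITD/NUP98-HOXD13 and 51.2% for Flt3-ITD/Runx1-het, against 48.6% for NUP98-HOXD13, 42.8% for Runx1-het and 35.8% for wild type. The 3 lists with Flt3-ITD thus lay above the 3 without it, whereas over all domains, as given above, Flt3-ITD/Runx1-het lay below NUP98-HOXD13. No domain was wider (0.0738% of all regions) or narrower (0.125%) by 1.5-fold in both lists labelled Runx1-het than in the other 4.

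**Figure D5:**
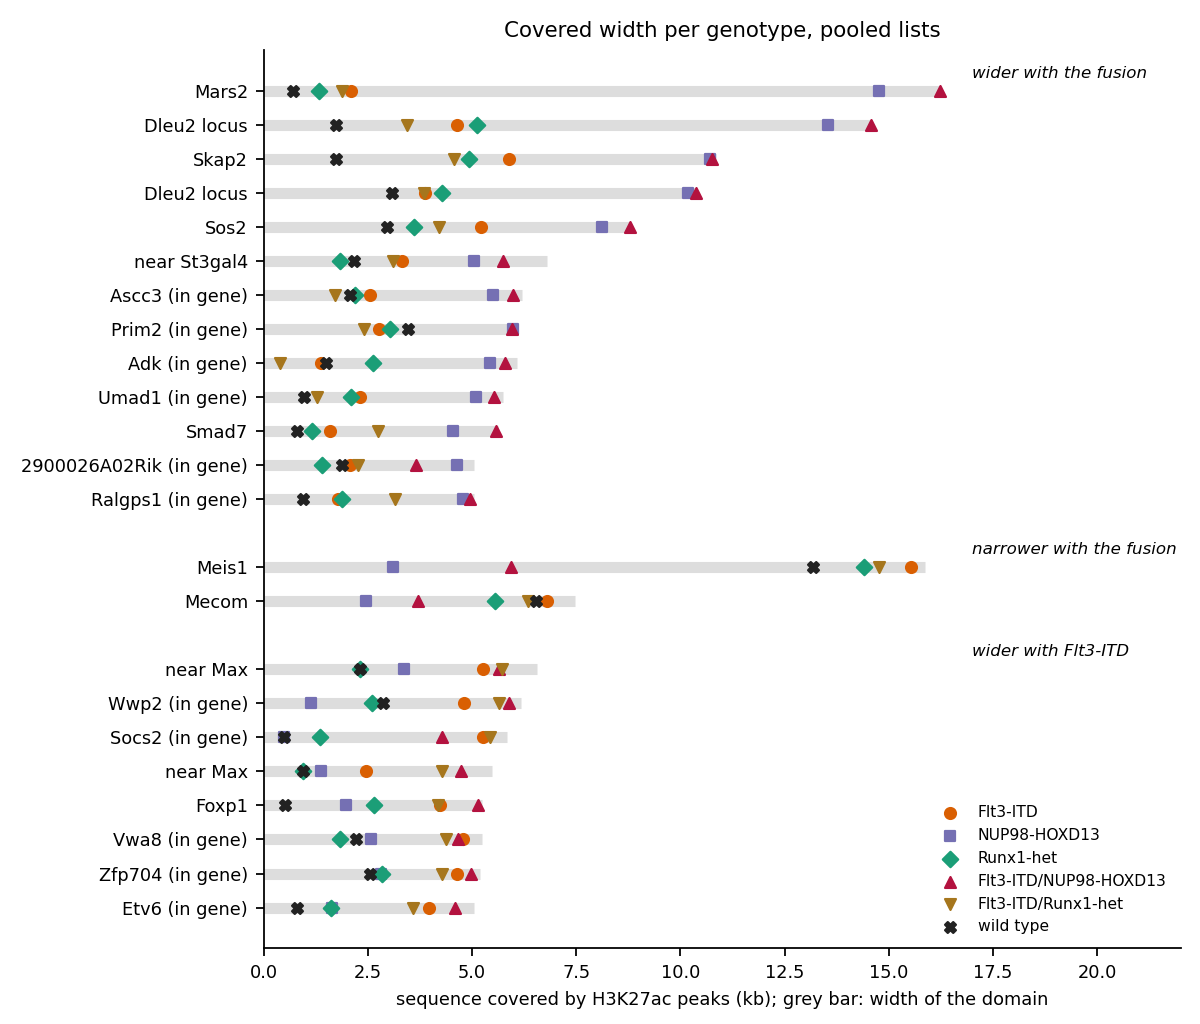
Sequence covered by H3K27ac peaks (x axis, kb) in each of the 6 pooled lists (symbols) for the 23 domains, chosen by this difference, whose width followed NUP98-HOXD13 or Flt3-ITD by 1.5-fold; grey bars are domain widths. The fusion lists cover 14.8 and 16.2 kb at Mars2, and 3.12 and 5.94 kb at Meis1.

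Other lists stood apart at other genes. Between genes near the neuropeptide gene Npy (6590 bp), H3K27ac covered 4255 bp in Flt3-ITD, 4032 bp in NUP98-HOXD13, 378 bp in Runx1-het, 6410 bp in Flt3-ITD/NUP98-HOXD13, 2369 bp in Flt3-ITD/Runx1-het and 526 bp in wild type, a 17-fold range. With −log10 q of at least 5, Runx1-het and wild type had 0 bp near Npy, so the range rests on weak peaks in the narrowest list. Within Cradd, whose domain ends 126 kb before that of Socs2, NUP98-HOXD13 alone was low, at 856 bp against 4809 to 8321 bp in the other 5 lists. Within Bicdl1, Flt3-ITD and Flt3-ITD/Runx1-het were high at 5071 and 5779 bp, and Runx1-het low at 579 bp. Within Galnt2, NUP98-HOXD13 and Flt3-ITD/NUP98-HOXD13 reached 6723 and 7217 bp, and Flt3-ITD/Runx1-het 4527 bp, against 803 to 1968 bp elsewhere. These domains each separate a different set of lists. At Car2, the erythroid gene, the lowest widths were 3438 bp in Flt3-ITD/NUP98-HOXD13 and 3303 bp in Flt3-ITD/Runx1-het, against 5572 bp in wild type. At Mycn, 6801 bp in Flt3-ITD/NUP98-HOXD13 and 6597 bp in Flt3-ITD/Runx1-het stood against 1413 bp in wild type, and at Osm 6312 bp in Flt3-ITD/Runx1-het against 1490 bp in wild type. The other mutants were also above wild type at Osm with lists of equal length. There Flt3-ITD had 4579 bp, NUP98-HOXD13 3942 bp, Runx1-het 2546 bp and Flt3-ITD/NUP98-HOXD13 5451 bp, against 886 bp in wild type.

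The extreme ratios to wild type involved further genes. Within Etv6, at a second site (5240 bp, chr6:134113476-134118715), H3K27ac covered 4787 bp in Flt3-ITD, 2193 bp in NUP98-HOXD13, 2606 bp in Runx1-het, 4490 bp in Flt3-ITD/NUP98-HOXD13, 3258 bp in Flt3-ITD/Runx1-het and 482 bp in wild type. Every mutant list was wider than wild type there, as at Spns2, a sphingosine-1-phosphate transporter gene, where the mutants had 3977 to 5331 bp, against 954 bp in wild type. Within Cux1, a homeobox gene, Flt3-ITD/Runx1-het reached 7193 bp and Runx1-het 1659 bp, against 930 bp in wild type. Below wild type were domains near Adgrl4, at 1295 bp in NUP98-HOXD13, 1791 bp in Flt3-ITD/NUP98-HOXD13 and 1235 bp in Flt3-ITD/Runx1-het, against 3252 bp in wild type; within Gse1, at 1145 bp in Runx1-het, against 2416 bp in wild type; within Maml2, a Notch coactivator gene, at 2778 bp in Runx1-het, against 4661 bp in wild type; and at Plekha2, at 5393 bp in Flt3-ITD, against 7032 bp in wild type. In Runx1-het the low values at Gse1 and Bicdl1 were not shared by Flt3-ITD/Runx1-het, which had 5624 bp and 5779 bp.

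Of the domains that hold the miRNA genes printed above, those of miR-142, miR-21a and miR-196b varied at most 1.38-fold between genotypes, and that of miR-15b varied more. The 12250 bp domain of miR-142, a miRNA of blood cells (chr11:87747444-87759693), had 10319 bp covered in Flt3-ITD, 10247 bp in NUP98-HOXD13, 11295 bp in Runx1-het, 11475 bp in Flt3-ITD/NUP98-HOXD13, 9420 bp in Flt3-ITD/Runx1-het and 8295 bp in wild type. The 10217 bp domain of miR-21a (chr11:86579717-86589933) had 9291 to 9957 bp in the mutants, against 8657 bp in wild type. In the domain of Ift80/Smc4 (9950 bp, chr3:69004046-69013995), which holds the genes of miR-15b and miR-16-2, the width was 6504 bp in Flt3-ITD, 4850 bp in NUP98-HOXD13, 6469 bp in Runx1-het, 9790 bp in Flt3-ITD/NUP98-HOXD13, 3293 bp in Flt3-ITD/Runx1-het and 1645 bp in wild type. Here Flt3-ITD/NUP98-HOXD13 was high and wild type low, while at the Dleu2 domains, beside the genes of the same seed family, both fusion lists were high.

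Promoters in domains were rich in G and C. Of the 501 genes that start in a domain, 368 had a RefSeq promoter of 250 bases before to 50 after the start, with a median of 63.7% G and C (quartiles 54.2% and 70.3%), against 61.7% in 5492 promoters in other regions held by all 6 lists and 53.3% in 10316 promoters in neither. The ETS core CGGAAG was on either strand of 26.6% (22.4 to 31.4) of domain promoters, against 40.8% (39.5 to 42.1) in other held regions, 12.1% in neither and 22.2% of all 16176. For the RUNX core TGTGGT the shares were 13.3% in domains, 12.1% in other held regions and 16.6% in neither; for the GATA core AGATAA 4.62%, 5.35% and 11.8%; for the STAT motif TTCNNNGAA 7.88%, 7.03% and 8.32%; for the MEIS core TGACAG 17.4%, 16.2% and 19.8%; for the NFY core CCAAT 35.6%, 39% and 37.7%; and for the SP core CCGCCC 63.9%, 68.1% and 36.8%. Of these 7 motifs, the ETS core had the largest difference between domain promoters and those of other held regions, and its intervals in these sets did not overlap. Both base composition and gene function differ between these sets, and their part in the difference was not tested.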

How the data were processed

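H3K27ac and H3K4me1 peak lists, 1 per genotype and mark, were analysed; the input sample was not used here. Per the submitters' processing notes, BWA, MACS2 and builds mm10 and GRCm38 were used (their versions are not stated in the labels). Each list is pooled over the samples of its group, per the labels, and read depth is unknown. Per peak, the deposited columns give a score (an integer), a ratio (the authors' fold enrichment at the summit), −log10 p and −log10 q values, and the summit position (other). The deposited ratio only ranked peaks within a list. Of the columns of the tables, 0 belong to samples outside the series.

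Peaks were merged across the 6 H3K27ac lists (1 bp overlap, 19 autosomes), and bases covered by each list were counted per region. Starts came from GENCODE mouse release 21 (GRCm38), promoter and miRNA sequences from RefSeq. Genotypes were compared by covered bases, with 1.5-fold as the threshold, without tests. The members and the 14 gene lists (298 entries, all found) were chosen with earlier results of these data known. Named were genes of the 15 widest domains, the 10 with the highest fold percentile, the 10 most and least variable, the 3 largest and smallest ratios to wild type per mutant, the 5 lowest and highest in H3K4me1, up to 8 per gene list, and the genotype genes; others are said to be chosen after their values were seen. Alternatives, of which scaling by the list median was added after the data were seen, were other widths, coverage minimums, a −log10 q of at least 5, equal-length lists, 5 of the 6 lists, chromosome X and start sites within 1000 bp. The counting was tested on simulated data. Python 3.11.15, numpy 2.4.6 and matplotlib 3.10.9 were used.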

Additional observations from a re-analysis of the deposited data

Results flagged for a closer look

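At 5 of the domains named, the width under Flt3-ITD moved in opposite directions by at least 1.5-fold in different backgrounds. The difference itself was not tested, since each background has 1 pooled list with Flt3-ITD and 1 without. Over all domains, 25 of 937 (2.67%) moved in this way. The same share over all regions held by every list was not counted, so whether domains differ from other regions in this is not known. At Stxbp4 the covered width of Flt3-ITD/NUP98-HOXD13 was 4.13 times that of NUP98-HOXD13, that of Flt3-ITD/Runx1-het 0.544 times that of Runx1-het, and that of Flt3-ITD 2.02 times that of wild type. Near Vldlr these ratios were 1.54, 0.504 and 0.582, and near Sdc1 2.65, 0.376 and 0.909. Within Tbxas1 the Flt3-ITD list was 1.52 times the wild-type list, Flt3-ITD/Runx1-het 0.534 times Runx1-het and Flt3-ITD/NUP98-HOXD13 1.16 times NUP98-HOXD13; within Umad1 these ratios were 2.37, 0.611 and 1.08. The ratio against Runx1-het was below 1 at all 5, and that of Flt3-ITD against wild type was also below 1 near Vldlr and near Sdc1. With −log10 q of at least 5, NUP98-HOXD13 had 0 bp at Stxbp4, near Vldlr and near Sdc1. Flt3-ITD/NUP98-HOXD13 then also had 0 bp at Stxbp4, and Flt3-ITD/Runx1-het 0 bp within Umad1. The ratios that use these widths thus rest on peaks below that threshold.

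Chromosome X, outside the rule, held another 5 regions that met the width and the presence in all 6 lists.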

How the results depend on the processing

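Each list is pooled, so no animal was left out and nothing measures the spread between animals. No paired analysis was possible because the pooled lists carry no replicate numbers. Depth is unknown, and sequence outside the peaks only failed the peak caller's threshold. Of the alternative values of counts and shares over all domains, 146 stayed within the interval of their share or 1.5 times their count, 63 moved and 12 reversed. A share was called reversed wherever it crossed an even split, however close to it. Of the alternative values for single domains, gene lists and patterns, 227 stayed within 1.5 times, 46 did not and 1 reversed.

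Division by the list median turned round the share of domains wider than in wild type in every mutant, to 32.6% for Flt3-ITD, 37.8% for NUP98-HOXD13, 35.3% for Runx1-het, 36.3% for Flt3-ITD/NUP98-HOXD13 and 32.7% for Flt3-ITD/Runx1-het; by construction it removes the difference between lists over all regions. The domains at least 1.5-fold wider numbered 67, 95, 52, 99 and 84 in the same order of genotypes.

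For H3K4me1 the same division gave 36.7%, 47.5%, 49.1%, 36.5% and 42.4% wider than in wild type. With −log10 q of at least 5 the H3K4me1 shares were 75.1%, 33.5%, 58.7%, 74.1% and 45.3%, and with lists of equal length 87.5%, 70.8%, 65.5%, 86.4% and 52%. These H3K4me1 alternatives and the division were chosen after the data were seen.

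The number of domains was 1904 with a minimum width of 4000 bp, 87 with 10000 bp, and 209 where each list had to cover 5000 bp. Those at least 1.5-fold wider than in wild type (Flt3-ITD, NUP98-HOXD13, Runx1-het, Flt3-ITD/NUP98-HOXD13, Flt3-ITD/Runx1-het) were 625, 456, 400, 781 and 495 at 4000 bp, 18, 18, 12, 29 and 15 at 10000 bp, 83, 51, 41, 142 and 51 where each list covered 0.5 of the region, and 9, 9, 3, 24 and 8 where each covered 5000 bp. The shares wider than in wild type were 97.7%, 85.1%, 96.6%, 97.7% and 86.2% at 10000 bp. In Flt3-ITD the share was 92.9% at 4000 bp, in Flt3-ITD/NUP98-HOXD13 95.7% where each list covered 5000 bp, in NUP98-HOXD13 71% with −log10 q of at least 5, and in Runx1-het 90.2% with that threshold and 88.3% with lists of equal length.

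Wild-type H3K27ac covered 70.9% of domain sequence where each list covered 0.5 of the region, 74.4% where each covered 5000 bp and 59.2% with −log10 q of at least 5. Wild-type H3K4me1 covered 40.3% at 10000 bp, 40% where each list covered 5000 bp and 25.6% with −log10 q of at least 5. Start sites were in 52.6% of domains at 4000 bp, 52.9% at 10000 bp, 53.1% where each list covered 0.5 of the region and 54.1% where each covered 5000 bp. Listed genes with a start in a domain numbered 11 at 10000 bp and 20 where each list covered 5000 bp, against 51.

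With each H3K27ac list left out of the merging in turn, wild-type coverage ranged from 62.7 to 68.3%, the share wider in Flt3-ITD from 93.4 to 96.1%, in Runx1-het from 82.4 to 86.7% and in Flt3-ITD/NUP98-HOXD13 from 92.4 to 95.2%. The number at least 1.5-fold wider ranged from 133 to 216 in NUP98-HOXD13 and from 200 to 375 in Flt3-ITD/NUP98-HOXD13, both lowest without the Flt3-ITD/NUP98-HOXD13 list. The number of domains ran from 737 to 913.

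Within Prim2 the ratio of Flt3-ITD to wild type reversed from 0.804 to 1.3 with −log10 q of at least 5. Domains narrower in both fusion lists numbered 7 with that threshold and 4 with scaled widths, against 2, and those wider in all Flt3-ITD lists 13 and 3, against 8.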
